A study of Homo sapiens with 18 samples.

Results

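The BH3-only genes are the pro-apoptotic branch of the BCL2 family, and 8 of them were followed here: BMF, BCL2L11, BBC3, PMAIP1, BID, BAD, BIK and HRK. They were taken by symbol, through their Ensembl gene IDs, and all 8 were found among the 40184 gene IDs measured. The measurements are RNA-seq values from 3 human acute myeloid leukaemia cell lines, each kept for 24 h with the solvent DMSO or with 500 nM RMC-4550, with 3 libraries in each of 6 groups. RMC-4550 is an allosteric inhibitor of SHP2, the phosphatase that couples growth factor receptors to RAS. Molm-14 and MV4-11 carry FLT3-ITD, a duplicated segment within the gene of the receptor tyrosine kinase FLT3. SKNO-1 carries KIT N822K, and it alone was cultured with human GM-CSF at 10 ng/mL, so line, mutation and growth factor cannot be told apart. The labels call the 3 libraries of a group biological replicates without saying more, so the p-values measure the spread between these libraries. That spread was estimated for each gene over all 6 groups together, so the standard error (SE) of a change is the same in each line.

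A BH3-only protein shares with the rest of the BCL2 family a single short helix, the BH3 domain. It inserts this helix into a groove of survival proteins such as BCL2, MCL1 and BCL2L1, and some members also bind BAX and BAK1 directly, the proteins that permeabilise the outer mitochondrial membrane. The genes are held in check by growth factor signalling in blood cells: ERK marks the BCL2L11 protein for degradation, and kinases downstream of receptors keep BAD bound to 14-3-3 proteins. The values below are transcript levels, and none of them measures a protein.

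The coding sequence of the helix core is what makes these 8 genes a group, so it is shown for each. Translated GENCODE 29 coding sequences were searched for the core pattern of leucine, 3 residues of any kind, glycine, alanine or serine, then aspartate and a charged or polar residue. The capitals mark the 18 bases of the core, from the leucine codon to the aspartate codon, with 12 bases on each side. Each stretch lies within 1 coding exon.

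BMF: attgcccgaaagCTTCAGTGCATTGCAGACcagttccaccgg

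BCL2L11: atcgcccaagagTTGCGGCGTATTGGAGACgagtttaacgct

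BBC3: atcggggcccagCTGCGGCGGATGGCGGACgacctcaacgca

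PMAIP1: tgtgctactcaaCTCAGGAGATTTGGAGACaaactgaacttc

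BID: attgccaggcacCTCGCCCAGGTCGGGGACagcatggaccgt

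BAD: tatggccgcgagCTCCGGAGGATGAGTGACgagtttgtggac

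BIK: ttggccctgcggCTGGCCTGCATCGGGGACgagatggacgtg

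HRK: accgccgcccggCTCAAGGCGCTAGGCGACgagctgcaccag

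On GRCh38 these stretches are at chr15:40104195-40104236 on the minus strand for BMF, chr2:111150091-111150132 on the plus strand for BCL2L11 and chr19:47226579-47226620 on the minus strand for BBC3. PMAIP1 has its stretch at chr18:59902661-59902702 (plus), BID at chr22:17739415-17739456 (minus) and BAD at chr11:64271622-64271663 (minus). The BIK stretch is at chr22:43127704-43127745 (plus) and the HRK stretch at chr12:116881170-116881211 (minus). The cores of BMF and BID had 7 of 18 bases in common, the fewest of any pair, and 13 of 18 were the same for BBC3 with BAD, for BCL2L11 with BBC3 and for BID with BIK. A read count per gene includes transcripts without this stretch. It was found in 4 of 9 annotated coding transcripts of BMF, 7 of 16 of BCL2L11, 2 of 4 of BBC3, 1 of 2 of PMAIP1, 4 of 11 of BID and 4 of 6 of BAD, and in the 1 coding transcript of BIK and of HRK.

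Read totals were between 17434810 and 19959917 per library. The share of reads in mitochondrially encoded genes was 5.07% to 7.02% in 14 libraries and 10.5% to 15.0% in 4, namely replicate 2 of Molm-14 with RMC-4550, replicates 1 and 3 of MV4-11 with DMSO and replicate 1 of MV4-11 with RMC-4550. The leukocyte and myeloid genes PTPRC, CD33, SPI1, CEBPA and CSF1R were read in every library, while myeloperoxidase (MPO) was at 4.40 CPM (the usual depth-scaled read count) or less in Molm-14 and MV4-11 and at 315 CPM or more in SKNO-1. RUNX1T1, the fusion partner of RUNX1 in SKNO-1, was at 13.2 to 14.4 CPM in SKNO-1 with DMSO and was not read in the other lines with DMSO.

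Levels between genes are compared per kilobase of the longest annotated transcript, as CPM per kb, as means of 3 libraries with their SD. In Molm-14 with DMSO, BBC3 (PUMA) was the most abundant member, at 29.6 ± 0.503 CPM per kb, followed by BIK at 21.4 ± 1.23. BMF at 14.3 ± 0.524, BID at 13.97 ± 0.978 and PMAIP1 at 12.7 ± 0.665 came next, and the libraries of BMF overlapped those of BID, and those of BID overlapped those of PMAIP1. BCL2L11 (BIM) was at 9.07 ± 0.337, BAD at 4.93 ± 0.224 and HRK at 0.367 ± 0.0634 CPM per kb.

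In MV4-11 with DMSO the order began with BMF at 25.5 ± 3.13 CPM per kb, then BBC3 at 19.4 ± 1.32, BID at 17.4 ± 0.540 and BIK at 15.4 ± 0.910, and each of these 4 was separated from the next in all libraries. PMAIP1 was at 8.39 ± 0.615, BAD at 6.23 ± 0.463 and BCL2L11 at 4.49 ± 1.92, and the libraries of BAD and BCL2L11 overlapped. HRK was last at 0.203 ± 0.0388. In SKNO-1 with DMSO BMF was again ahead, at 37.4 ± 0.894 CPM per kb, then BID at 19.01 ± 0.212 and BBC3 at 15.8 ± 0.983, without overlap. BIK at 8.46 ± 0.843, PMAIP1 at 7.53 ± 0.220, BAD at 7.11 ± 0.805 and BCL2L11 at 6.07 ± 0.355 followed, each overlapping its neighbour, and HRK had no read in any of the 3 DMSO libraries.

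These places depend on the length used. Per kilobase of the longest annotated coding sequence BMF led in all 3 lines with DMSO. It was at 121 CPM per kb for Molm-14, 216 for MV4-11 and 317 for SKNO-1, and BIK was in place 6 in each line. For PMAIP1 and BBC3 this length was 408 and 783 bases, while their coding sequences shown above with the BH3 stretch have 162 and 579. A shorter length gives a higher level. Over 162 bases, the 24.7 CPM of PMAIP1 in Molm-14 with DMSO would lie above the 121 CPM per kb of BMF. The lead of BMF in Molm-14 thus holds for the longest coding lengths, and the other places by the shorter lengths were not computed. With RMC-4550, per kilobase of transcript, BMF was ahead in all 3 lines, at 63.2 ± 9.25 for Molm-14, 36.4 ± 4.39 for MV4-11 and 51.9 ± 2.53 for SKNO-1.

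**Figure D1:**
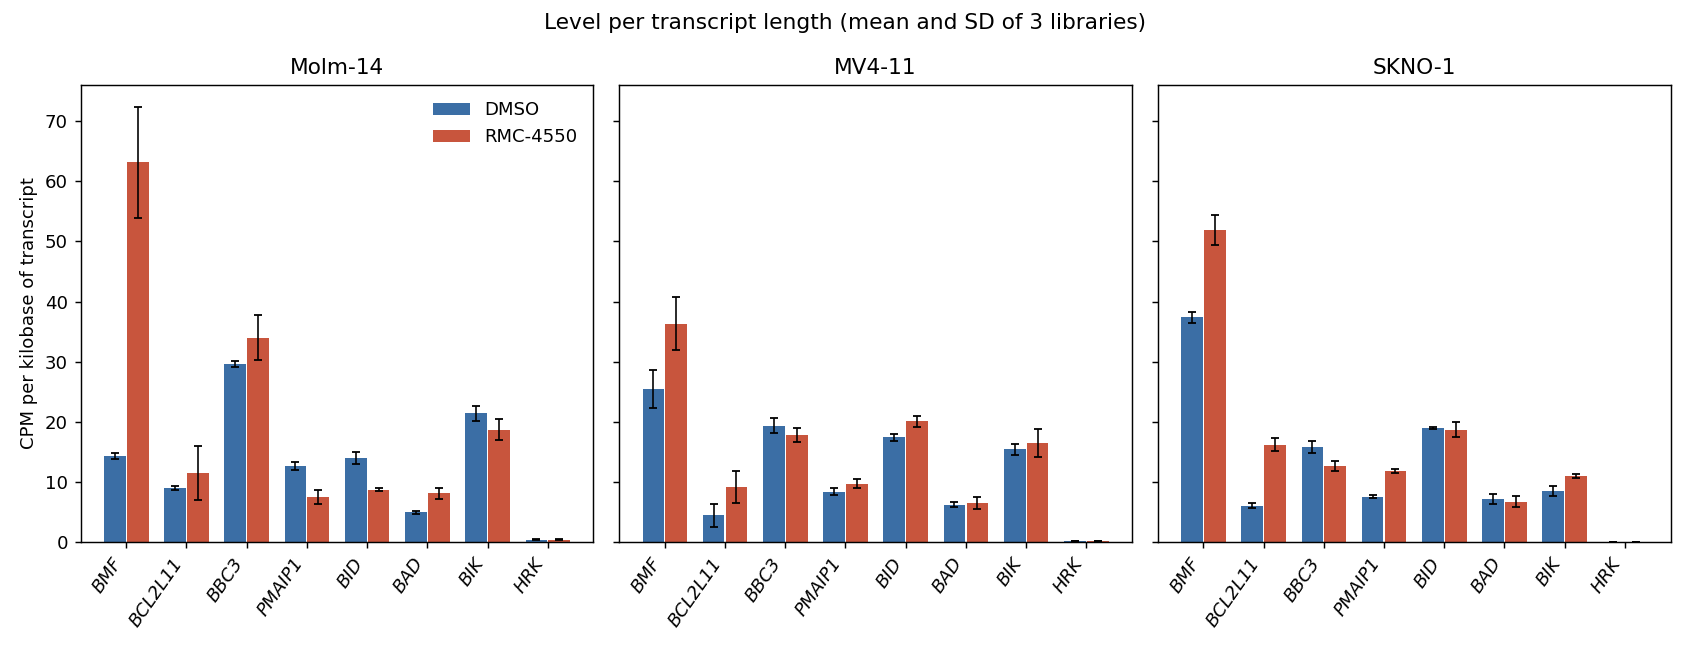
Level of each BH3-only transcript in CPM per kilobase of the longest annotated transcript, for DMSO (blue) and RMC-4550 (red) in the 3 lines; bars are means and error bars SDs of 3 libraries. With DMSO BBC3 leads in Molm-14 (29.6) and BMF in MV4-11 (25.5) and SKNO-1 (37.4), and with RMC-4550 BMF leads in all 3.

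The summed level of the 8 genes with DMSO was 106 ± 0.989 CPM per kb for Molm-14, 97.0 ± 3.47 for MV4-11 and 101 ± 2.62 for SKNO-1. BMF made up 13.4 ± 0.379% of that sum for Molm-14, 26.2 ± 2.42% for MV4-11 and 36.9 ± 0.280% for SKNO-1. With RMC-4550 the sums were 152 ± 16.1, 116 ± 4.64 and 129 ± 4.55 CPM per kb, and the BMF share was 41.4 ± 1.81% for Molm-14, 31.2 ± 2.79% for MV4-11 and 40.3 ± 0.699% for SKNO-1. Summed in CPM without the length, the order of the lines with DMSO was another, at 256.5 ± 2.87 for Molm-14, 261 ± 22.7 for MV4-11 and 314 ± 5.53 for SKNO-1. On that scale the BMF share was larger, at 26.0 ± 0.674%, 45.6 ± 1.76% and 55.7 ± 0.574% with DMSO and 61.1 ± 0.698%, 49.4 ± 1.88% and 55.4 ± 0.577% with RMC-4550, so it did not rise in SKNO-1. These sums are descriptions and were not tested.

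Differences between the lines with DMSO were tested gene by gene with limma, with Benjamini-Hochberg adjustment over all genes tested, and "called" below means an adjusted p under 0.05. Between MV4-11 and Molm-14, 6 of the 8 members were called, where 54% of 15277 genes were. BMF was 1.78-fold higher in MV4-11 (log2 difference 0.83, SE 0.11, adjusted p 1.7e-05) and BID was 1.25-fold higher (adjusted p 0.0025). BCL2L11 was 2.14-fold lower in MV4-11 (adjusted p 0.0065), BBC3 1.53-fold (adjusted p 4.9e-05), PMAIP1 1.51-fold (adjusted p 0.00024) and BIK 1.39-fold lower (adjusted p 0.0029). When the mitochondrial share was a covariate, the BCL2L11 difference was -0.39 in place of -1.10 and was still called. BAD (0.33, adjusted p 0.063) and HRK (-0.84, adjusted p 0.15) were not called, although the libraries of these lines did not overlap for any of the 8 genes, as was so for 61% of all genes. The HRK difference was called with log2(CPM + 1) (-0.52), after quantile normalization (-1.34), with voom weights (-0.83) and without SKNO-1 RMC-4550 replicate 1. BAD was called without MV4-11 DMSO replicate 2 (0.40) or Molm-14 RMC-4550 replicate 2 (0.33).

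Between SKNO-1 and Molm-14, 7 of 8 were called, where 65.1% of 15805 genes were. BMF was 2.62-fold higher in SKNO-1 (log2 difference 1.39, SE 0.11, adjusted p 1.8e-08), BAD 1.43-fold (adjusted p 0.005) and BID 1.36-fold higher (adjusted p 8.4e-05). BIK was 2.54-fold lower (adjusted p 3.6e-08), BBC3 1.88-fold (adjusted p 2.8e-07) and PMAIP1 1.68-fold lower (adjusted p 1.2e-05). HRK was also called lower in SKNO-1, with 33 to 44 reads per library in Molm-14 and none in SKNO-1. Its mean CPM in Molm-14 was 15.1-fold that of a floor of 3 reads per library in SKNO-1. BCL2L11 was the exception (-0.58, adjusted p 0.10). Its difference passed with the mitochondrial share as covariate (-0.64), without the 4 libraries over 10% (-0.58) and without Molm-14 RMC-4550 replicate 2, which makes 8 of 8. No member's libraries overlapped, as for 83.4% of all genes. The BAD difference was not called after quantile normalization (0.35). Between SKNO-1 and MV4-11, 4 of 8 were called, where 41.6% of 15528 genes were. BMF was 1.47-fold higher in SKNO-1 (adjusted p 0.0011), BIK 1.83-fold lower (adjusted p 2.2e-05) and BBC3 1.23-fold lower (adjusted p 0.018). HRK was also called lower, and its mean CPM in MV4-11 was 8.32-fold that of the same floor in SKNO-1. The libraries of 6 members did not overlap, against 52.5% of all genes. The BBC3 difference was not called without MV4-11 DMSO replicate 1 (-0.24), without SKNO-1 DMSO replicate 1 (-0.25), without the 4 libraries over 10% (-0.24) or with no filter on low values. The BMF difference was 0.31 with the covariate and 0.36 without the 4 libraries, in place of 0.56, and was still called. In the order Molm-14, MV4-11, SKNO-1 the mean DMSO level rose for BMF, with each step called, and fell for BBC3 and BIK, with each step called. The means of BID and BAD were also ordered upward and those of PMAIP1 and HRK downward, with at least 1 step not called.

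With RMC-4550, 4 of 8 members were called in Molm-14 (2 higher, 2 lower), where 46.6% of 14020 genes were called, 21.5% higher and 25.1% lower. In MV4-11, 2 of 8 were called, both higher, where 13.9% of 14739 genes were called, 5.85% higher and 8.03% lower. In SKNO-1, 5 of the 7 tested were called (4 higher, 1 lower), where 27% of 14690 genes were called, 10.8% higher and 16.2% lower. Of all genes called in SKNO-1, 40.0% were higher, and 50.6% with median-ratio scaling. BMF was the one member called in all 3 lines. The median log2 change of the tested members was 0.11 for Molm-14, 0.15 for MV4-11 and 0.37 for SKNO-1, and that of all genes tested was -0.06, -0.01 and -0.05. The DMSO and RMC-4550 libraries did not overlap for 4 members for Molm-14, 3 for MV4-11 and 5 for SKNO-1, against 59.9%, 24.6% and 62% of all genes. In cultures measured as a whole, fewer cells with a transcript and less transcript per cell cannot be told apart.

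**Figure D2:**
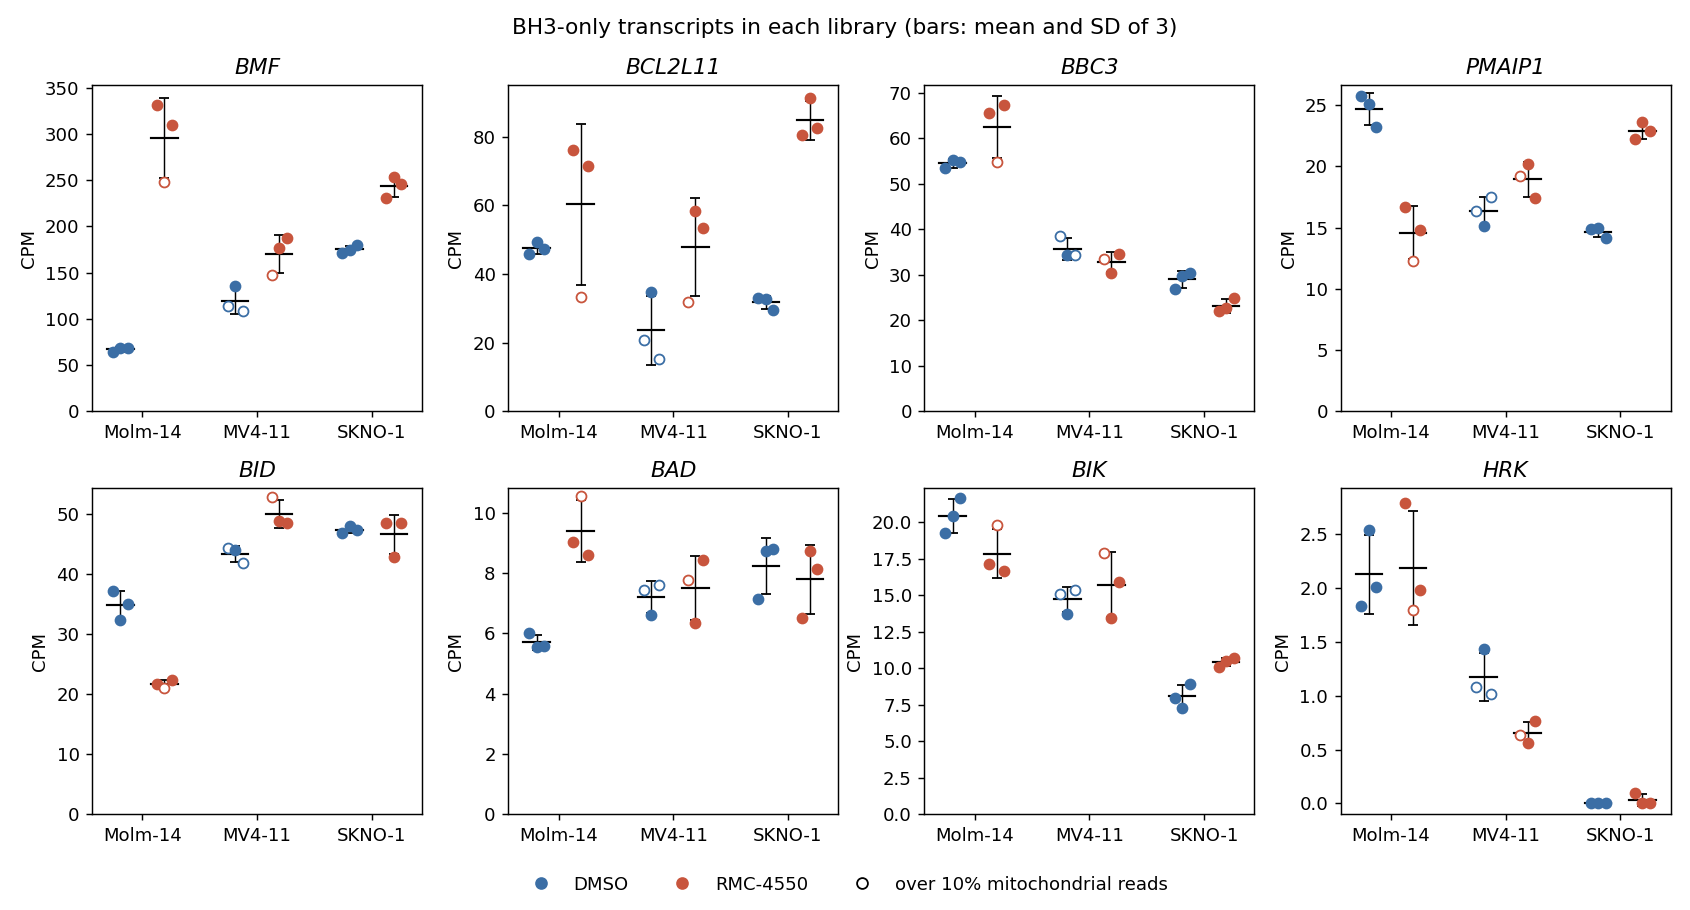
CPM of the 8 transcripts in every library, by line and treatment; bars are the mean and SD of 3 libraries, and open points are the 4 libraries with over 10% mitochondrial reads. BMF is higher with RMC-4550 in all 9 treated libraries than in any DMSO library of the same line, while PMAIP1 is lower in Molm-14 and higher in SKNO-1.

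BMF (ENSG00000104081, chr15:40087890-40108892, minus strand) encodes a sensitiser that binds the dynein light chain DYNLL2 in the cytoskeleton until it is released. Molm-14 had 64.0, 67.9 and 68.5 CPM with DMSO and at 331, 248 and 309 CPM with RMC-4550. MV4-11 had 114, 136 and 108 CPM with DMSO and at 147, 177 and 187 CPM with RMC-4550. SKNO-1 had 171, 174 and 180 CPM with DMSO and at 230, 254 and 246 CPM with RMC-4550. The treated libraries were higher without overlap in each line, by far the most in Molm-14, where the lowest mean DMSO level of the 3 lines became the highest mean RMC-4550 level. The treated libraries of Molm-14 and SKNO-1 overlapped, with 248 CPM in Molm-14 replicate 2 and 254 CPM in SKNO-1 replicate 2. The treated groups were not tested against each other.

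The rise of BMF was 4.40-fold in Molm-14 (log2 change 2.14, SE 0.11, limma adjusted p 2.4e-09), 1.43-fold for MV4-11 (0.51, adjusted p 0.0064) and 1.39-fold for SKNO-1 (0.47, adjusted p 0.0055). The difference between the lines was tested directly as the difference of the log2 changes. The change was smaller in MV4-11 than in Molm-14 (-1.62, 95% confidence interval -1.97 to -1.28, adjusted p 2.2e-05), and smaller in SKNO-1 than in Molm-14 (-1.66, -2.01 to -1.32, adjusted p 9.9e-06). Between SKNO-1 and MV4-11 the difference was -0.04, with an interval of -0.38 to 0.30. In the fit of MV4-11 on its own libraries the BMF change was not called (adjusted p 0.10). The antisense gene BMF-AS1 shares 461 of the 5447 exon bases of BMF, and it is not among the IDs analysed here.

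BCL2L11 (ENSG00000153094, chr2:111119378-111168447, plus strand) encodes BIM, which binds all the survival proteins and BAX. In SKNO-1 it was at 32.8, 32.8 and 29.6 CPM with DMSO and at 80.5, 91.2 and 82.5 CPM with RMC-4550. In MV4-11 it was at 20.8, 34.6 and 15.1 CPM with DMSO and at 31.7, 58.3 and 53.5 CPM with RMC-4550. In Molm-14 it was at 45.7, 49.2 and 47.4 CPM with DMSO and at 76.1, 33.4 and 71.3 CPM with RMC-4550. Only in SKNO-1 were the groups apart: in MV4-11 treated replicate 1 was below DMSO replicate 2, and in Molm-14 treated replicate 2 was below all 3 DMSO libraries while the other two were above them.

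The rise of BCL2L11 was 2.67-fold in SKNO-1 (log2 change 1.41, SE 0.30, limma adjusted p 0.0024) and 2.09-fold in MV4-11 (1.06, SE 0.30, adjusted p 0.028), and it was not called in Molm-14 (0.25, interval -0.39 to 0.90, adjusted p 0.51). The shared SE covers unequal groups. With DMSO and RMC-4550 the SD of the log2 values was 0.086 and 0.095 in SKNO-1, 0.60 and 0.47 in MV4-11, and 0.054 and 0.66 in Molm-14. None of the 3 differences between lines passed (0.81 for MV4-11 minus Molm-14, adjusted p 0.18; 1.16 for SKNO-1 minus Molm-14, adjusted p 0.099; 0.35 for SKNO-1 minus MV4-11, adjusted p 0.75). The call in MV4-11 was lost without DMSO replicate 1 (1.02), DMSO replicate 3 (0.78), RMC-4550 replicate 2 (0.89) or RMC-4550 replicate 3 (0.96), and in the fit of MV4-11 alone (adjusted p 0.15).

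The 4 libraries with over 10% mitochondrial reads were the lowest for BCL2L11 in each of their groups. Without them the change in Molm-14 was 0.64 and was called. Without Molm-14 RMC-4550 replicate 2 alone it was also 0.64 but was not called (limma adjusted p 0.068). Among the fits with libraries left out, the call thus came only when MV4-11 libraries were left out as well. In MV4-11 the value without the 4 libraries was 0.69, from 1 DMSO and 2 treated libraries. Among the MV4-11 libraries over 10% it was 0.84, from 2 DMSO and 1 treated library. With the share as a covariate the changes were 0.67 in Molm-14 and 0.63 in MV4-11, both called, and the response of MV4-11 minus that of Molm-14 was -0.04 in place of 0.81. SKNO-1 then differed from Molm-14 (0.80) and from MV4-11 (0.83), and both differences were called. All SKNO-1 libraries were under 10%, and no DMSO library of Molm-14 was over it. The same 4 libraries were also the lowest for BMF in their groups. In Molm-14 the BMF change was 2.26 without RMC-4550 replicate 2, in place of 2.14. In MV4-11 the BMF change was 0.42 among the libraries under 10% and 0.41 among those over 10%, in place of 0.51. The part of the mitochondrial share in these results was not tested further.

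**Figure D3:**
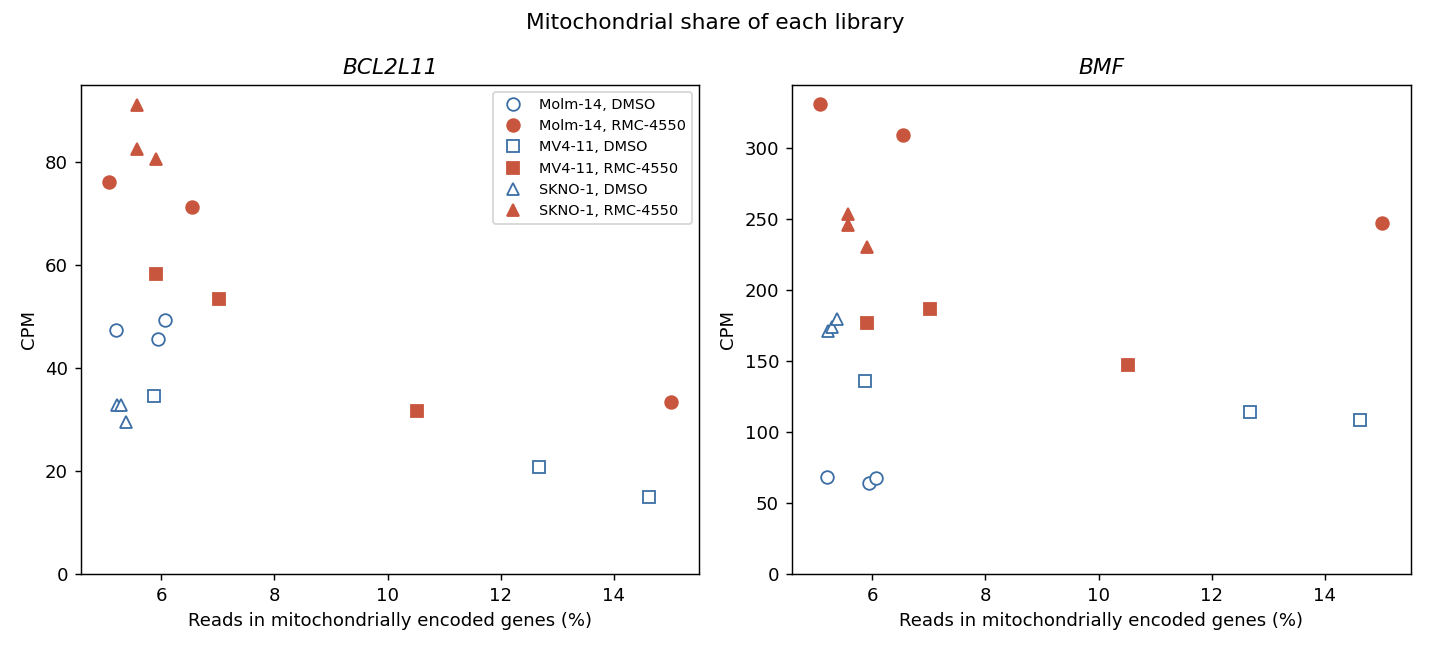
CPM of BCL2L11 (left) and BMF (right) in each library against the percentage of reads in mitochondrially encoded genes; open symbols are DMSO, filled symbols RMC-4550, and the symbol shape gives the line. The 4 libraries over 10% hold the lowest BCL2L11 and BMF values of their groups.

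The BCL2L11 window of 250 bases before to 50 after the RefSeq start (GRCh38.p14) was searched for the forkhead motif GTAAACA on both strands, because FOXO factors are known regulators of BCL2L11. It held 1 match, shown in capitals with its surroundings, at 223 to 217 bases before the start.

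BCL2L11 promoter, chr2:111120680-111120709, plus strand: gagttactccgGTAAACAcgccagggacgg

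The motif was in 3.42% of the 34796 different RefSeq promoter windows, and in none of the other 12 windows of the members, which covered BMF, BBC3, PMAIP1, BID, BAD and HRK. FOXO3 fell in SKNO-1 from 51.1 ± 0.334 to 40.9 ± 3.38 CPM (log2 change -0.32, adjusted p 0.041), a call lost without 8 of the 18 libraries, such as SKNO-1 RMC-4550 replicate 2 (-0.28). It was also lost with median-ratio scaling (-0.26), after quantile normalization (-0.19), with no filter, with the replicate block and with no trend. FOXO3 was not called in Molm-14 (0.11) or MV4-11 (0.07). FOXO4 was not called in any line (0.29 for Molm-14, 0.29 for MV4-11 and 0.19 for SKNO-1). Nor was FOXO1 (0.13, 0.21 and -0.43 in the same order), whose mean in SKNO-1 with DMSO was 1.375 CPM. In the opposite strand gene MIR4435-2HG, which shares 727 of the 6658 exon bases of BCL2L11, the log2 change was -0.05 for Molm-14, 0.10 for MV4-11 and 0.17 for SKNO-1, and none was called.

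BBC3 (ENSG00000105327, chr19:47220822-47232766, minus strand) encodes PUMA, which binds all the survival proteins. In SKNO-1 it was at 26.9, 29.6 and 30.3 CPM with DMSO and at 21.9, 22.7 and 24.8 CPM with RMC-4550. The treated libraries were all below, and the fall was 1.25-fold (log2 change -0.32, SE 0.09, limma adjusted p 0.017). In Molm-14 it was at 53.4, 55.1 and 54.8 CPM with DMSO and at 65.4, 54.6 and 67.3 CPM with RMC-4550 (0.19, adjusted p 0.10), and treated replicate 2, one of the 4 libraries with a high mitochondrial share, was again the lowest of its group. Without that replicate the change was 0.29 and was called. In MV4-11 it was at 34.2 to 38.4 CPM with DMSO and at 30.4 to 34.5 CPM with RMC-4550 (-0.12, adjusted p 0.46). The change in SKNO-1 was lower than that in Molm-14 by a tested difference of -0.51 (interval -0.79 to -0.23, adjusted p 0.019), which was not called without Molm-14 DMSO replicate 1 or SKNO-1 DMSO replicate 2 or 3 or RMC-4550 replicate 1 (-0.50 to -0.46). The SKNO-1 call was lost without DMSO replicate 2 or 3 or RMC-4550 replicate 1 or 2 (-0.31 to -0.28), with no filter on low values and after quantile normalization (-0.19).

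PMAIP1 (ENSG00000141682, chr18:59899948-59904306, plus strand) encodes NOXA, a sensitiser that binds MCL1 and leads it to degradation. In Molm-14 it was at 25.7, 25.1 and 23.2 CPM with DMSO and at 16.7, 12.3 and 14.8 CPM with RMC-4550. In SKNO-1 it was at 14.9, 15.0 and 14.2 CPM with DMSO and at 22.3, 23.6 and 22.9 CPM with RMC-4550. In MV4-11 it was at 16.4, 15.1 and 17.5 CPM with DMSO and at 19.2, 20.2 and 17.4 CPM with RMC-4550. The treated libraries were thus all lower in Molm-14 and all higher in SKNO-1, and those of MV4-11 overlapped.

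The fall of PMAIP1 in Molm-14 was 1.70-fold (log2 change -0.77, SE 0.11, limma adjusted p 3.4e-05), the rise in SKNO-1 was 1.56-fold (0.64, SE 0.11, adjusted p 0.00032), and the value in MV4-11 was 0.21 (adjusted p 0.23). The difference of changes was 1.41 for SKNO-1 minus Molm-14 (interval 1.09 to 1.73, adjusted p 2.6e-05) and 0.98 for MV4-11 minus Molm-14 (interval 0.66 to 1.30, adjusted p 0.00062). It was 0.43 for SKNO-1 minus MV4-11, which did not pass (interval 0.11 to 0.75, adjusted p 0.21). With DMSO PMAIP1 was highest in Molm-14, and with RMC-4550 its mean there, 14.6 ± 2.19 CPM, was the lowest of the 3 lines, beside 18.9 ± 1.42 in MV4-11 and 22.9 ± 0.680 in SKNO-1.

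BID (ENSG00000015475, chr22:17734138-17774770, minus strand) is the member that caspase 8 cleaves, which links death receptors to mitochondria. In Molm-14 it was at 37.2, 32.4 and 35.0 CPM with DMSO and at 21.8, 21.1 and 22.4 CPM with RMC-4550. All treated libraries were below all DMSO libraries, a fall of 1.60-fold (log2 change -0.68, SE 0.08, limma adjusted p 4.1e-06). In MV4-11 it was at 44.3, 44.1 and 41.9 CPM with DMSO and at 52.8, 49.0 and 48.5 CPM with RMC-4550. These groups did not overlap either, with the treated libraries above, but the change of 0.20 did not pass (adjusted p 0.093), while it was called with median-ratio scaling (0.25) and with the covariate (0.20). In SKNO-1 BID was at 47.0 to 48.0 CPM with DMSO and at 42.9 to 48.5 CPM with RMC-4550 (-0.03, interval -0.19 to 0.14). The change in Molm-14 differed from that in MV4-11 (MV4-11 minus Molm-14 0.88, interval 0.65 to 1.11, adjusted p 1.0e-04) and from that in SKNO-1 (0.65, interval 0.42 to 0.88, adjusted p 0.0011).

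BAD (ENSG00000002330, chr11:64269830-64284704, minus strand) encodes a sensitiser for BCL2 and BCL2L1 that survival kinases inactivate by phosphorylation. In Molm-14 it was at 6.001, 5.54 and 5.57 CPM with DMSO and at 9.02, 10.6 and 8.60 CPM with RMC-4550. The groups were apart, and the rise was 1.64-fold (log2 change 0.71, SE 0.15, limma adjusted p 0.00091). BAD was at 6.598 to 7.60 and 6.33 to 8.42 CPM in MV4-11 (0.05) and at 7.15 to 8.80 and 6.52 to 8.72 CPM in SKNO-1 (-0.08), DMSO before RMC-4550, with overlap in both. The change was smaller in SKNO-1 than in Molm-14 (-0.79, adjusted p 0.02) and in MV4-11 than in Molm-14 (-0.66, adjusted p 0.036), and each call depended on single libraries. The first was not called after quantile normalization (-0.68) or without Molm-14 DMSO replicate 2, SKNO-1 DMSO replicate 2 or 3 or SKNO-1 RMC-4550 replicate 1 (-0.77 to -0.67). The other was not called without any 1 of the 3 Molm-14 DMSO libraries, Molm-14 RMC-4550 replicate 2, MV4-11 DMSO replicate 1 or 3 or MV4-11 RMC-4550 replicate 2 (-0.70 to -0.55).

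The opposite strand gene GPR137 shares 404 of the 1708 exon bases of BAD, and whether reads were counted by strand is not stated. GPR137 was at 14.7 ± 0.989 CPM in Molm-14 with DMSO and at 22.8 ± 2.30 CPM with RMC-4550, a log2 change of 0.64 (limma adjusted p 0.00059), and its changes in MV4-11 (0.08) and SKNO-1 (-0.08) were not called. The values of BAD and GPR137 therefore moved alike in the 3 lines, and reads of one gene counted in the other cannot be told apart from these values.

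BIK (ENSG00000100290, chr22:43110748-43129712, plus strand) encodes a sensitiser found at the endoplasmic reticulum. In SKNO-1 it was at 7.98, 7.30 and 8.90 CPM with DMSO and at 10.1, 10.5 and 10.7 CPM with RMC-4550, without overlap. The rise was 1.30-fold (log2 change 0.37, SE 0.12, limma adjusted p 0.026), and this call was lost without DMSO replicate 1 or 2 or RMC-4550 replicate 2 or 3 (0.30 to 0.37) and with no filter on low values. In Molm-14 BIK was at 19.3 to 21.6 CPM with DMSO and at 16.6 to 19.8 CPM with RMC-4550 (-0.20, adjusted p 0.17), and without the 4 libraries with a high mitochondrial share it was called lower (-0.28). Without Molm-14 RMC-4550 replicate 2 alone, BIK had the same -0.28 and was not called. In MV4-11 it was at 13.7 to 15.3 and at 13.4 to 17.9 CPM (0.09, adjusted p 0.69). SKNO-1 and Molm-14 differed in the change of BIK (0.57, interval 0.22 to 0.92, adjusted p 0.036), a call lost without any 1 of 10 of their 12 libraries (0.50 to 0.61), all but Molm-14 RMC-4550 replicate 2 and SKNO-1 DMSO replicate 3.

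HRK (ENSG00000135116, chr12:116856144-116881441, minus strand), the harakiri gene, is best known from neurons deprived of growth factor, and it was the least abundant member in every group. In MV4-11 it had 20, 28 and 17 reads with DMSO and 12, 11 and 15 reads with RMC-4550, which is 1.08, 1.43 and 1.02 CPM against 0.634, 0.557 and 0.761 CPM. The groups did not overlap, but the log2 change of -0.83 had an interval of -1.84 to 0.19 (adjusted p 0.30). In Molm-14 it had 33, 44 and 36 reads with DMSO and 51, 28 and 35 with RMC-4550 (0.03, interval -0.99 to 1.05). In SKNO-1 there was no read with DMSO, and 2 reads in replicate 1 with RMC-4550 were the only ones, so HRK was not tested there. The intervals for MV4-11 and Molm-14 still use a spread shared by all groups, those of SKNO-1 included. The SD of the HRK log2 values was 0.26 with DMSO and 0.22 with RMC-4550 in MV4-11, and 0.24 and 0.33 in Molm-14. In SKNO-1 with RMC-4550 it was 1.34.

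**Figure D4:**
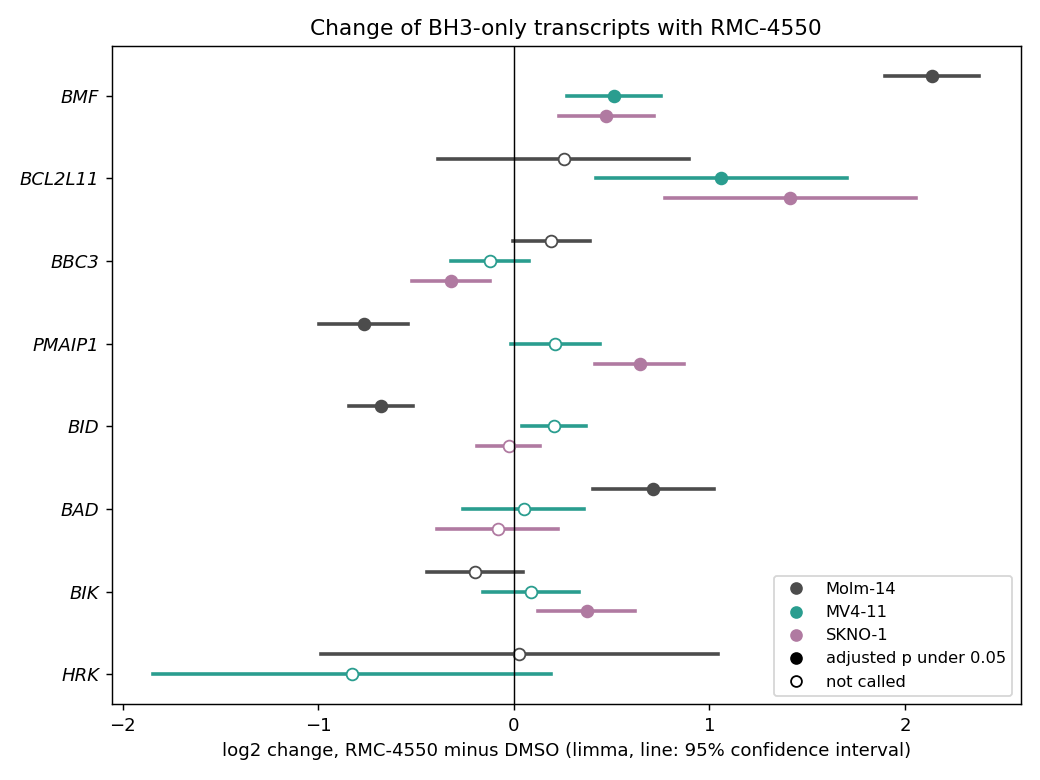
Log2 change with RMC-4550 for each member in Molm-14 (grey), MV4-11 (green) and SKNO-1 (purple), with 95% confidence intervals from limma; filled points have an adjusted p under 0.05, and HRK was not tested in SKNO-1. BMF in Molm-14 is the largest change at 2.14, and PMAIP1 is on opposite sides of 0 in Molm-14 (-0.77) and SKNO-1 (0.64).

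Across members, the differences in response between lines were mostly those of Molm-14 from the other lines. Of the 8 members, 4 were called for MV4-11 against Molm-14, where 19.4% of 13482 genes were. Of the 7 tested, 6 were called for SKNO-1 against Molm-14, where 10.9% of 12905 genes were. For SKNO-1 against MV4-11 limma called 0 of 7, where 1.65% of 13901 genes were called. At an unadjusted p under 0.05, 2 of the 7 passed, PMAIP1 and BID. When the mitochondrial share was a covariate, 2 were called, BCL2L11 (0.83) and PMAIP1 (0.47). The comparisons share the libraries of each line, so their counts are not independent.

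The other genes of the pathway are given from 6 lists, 55 genes in all. Over all genes tested, the share called was 46.6% for Molm-14, 13.9% for MV4-11 and 27% for SKNO-1, and in that order the medians of the log2 changes were -0.06, -0.01 and -0.05. Of the 6 survival genes, 0 were called higher and 1 lower in Molm-14, 0 and 1 in MV4-11 and 1 and 1 in SKNO-1 (medians 0.17, 0.06 and -0.06). BCL2, which sequesters most BH3-only proteins, fell in Molm-14 from 74.4 ± 3.62 to 28.8 ± 8.204 CPM (log2 change -1.41, SE 0.23, limma adjusted p 0.00015), without overlap, and was not called in MV4-11 (0.11) or SKNO-1 (-0.19). With 1 library left out the BCL2 change in Molm-14 ran from -1.58 to -1.16 and was still called. The other calls were of genes under 5 CPM, BCL2A1 lower in MV4-11 (-0.66) and SKNO-1 (-0.60) and BCL2L10 higher in SKNO-1 (1.39), and both BCL2A1 calls were lost with single libraries left out. MCL1, the partner of NOXA and BIM, was not called in any line (-0.09, -0.03 and 0.27).

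Of the 3 effectors, BAX and BAK1 were tested. BAK1 fell in Molm-14 from 33.9 ± 1.76 to 19.8 ± 5.95 CPM (-0.82, adjusted p 0.0036). With 1 library left out this fall was as small as -0.55, and it was still called. BAX fell in SKNO-1 from 142 ± 3.80 to 114 ± 8.36 CPM (-0.32, adjusted p 0.011). The BAX call was lost without RMC-4550 replicate 1 (-0.27) and after quantile normalization (-0.22), and there was no further call among the effectors. Among the 13 genes of the apoptosome and the caspases, 3 were called higher and 3 lower in Molm-14, 1 and 1 in MV4-11 and 0 and 2 in SKNO-1 (medians -0.08, 0.06 and -0.20). With 6 of the 12 tested called in Molm-14 and 2 of 12 in MV4-11, the shares are near those of all genes, 46.6% and 13.9%. CYCS, the cytochrome c released when BAX and BAK1 open the membrane, fell in all 3 lines (-1.26, -0.62 and -1.12, adjusted p 3.0e-07, 0.0012 and 1.8e-06). In Molm-14 the 3 called higher were CASP8, the protease that cleaves BID (31.4 ± 0.546 to 46.8 ± 2.99 CPM, 0.58), CASP6 (0.71) and CASP9, the apoptosome caspase (0.72). CASP9 was also called in MV4-11 (0.34), but not without RMC-4550 replicate 3 (0.33), with no filter or in the fit of that line alone (adjusted p 0.16). BIRC5, which encodes survivin, fell in Molm-14 (-1.23) and in SKNO-1 from 58.4 ± 2.35 to 25.3 ± 0.548 CPM (-1.21, adjusted p 0.00015).

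Among the 15 partners and modifiers of BH3-only proteins, 1 was called higher and 6 lower in Molm-14, 0 and 2 in MV4-11 and 0 and 5 in SKNO-1 (medians -0.27, -0.13 and -0.24), shares near the 46.6%, 13.9% and 27% of all genes. The 14-3-3 genes YWHAE (-0.37, -0.28 and -0.39) and YWHAH (-0.50, -0.51 and -0.72) fell in each line, given in the order Molm-14, MV4-11, SKNO-1, and the YWHAE call in MV4-11 was lost without DMSO replicate 3 (-0.22) or RMC-4550 replicate 2 (-0.24), with median-ratio scaling (-0.23) and with no filter. In the fit of MV4-11 alone neither was called (adjusted p 0.061 for YWHAH). Of the other 14-3-3 genes listed, YWHAZ, the most abundant, was not called in any line (0.08, -0.13 and 0.01). YWHAQ was not called either (-0.27, 0.37 and -0.29). YWHAG was called lower in Molm-14 only (-0.63) and YWHAB in SKNO-1 only (-0.22). HUWE1, a ubiquitin ligase for MCL1, fell in Molm-14 (-0.67, adjusted p 0.032), but it was not called without RMC-4550 replicate 2 (-0.42) or without any 1 DMSO library (-0.71 to -0.65). DYNLL2, the anchor of BMF, was lower in Molm-14 (-0.61, and -0.39 without RMC-4550 replicate 2). Among the 12 transcription factors known to act on BH3-only genes, 2 were called higher and 4 lower in Molm-14, 1 and 1 in MV4-11 and 1 and 2 in SKNO-1 (medians 0.09, 0.05 and -0.22), again near the shares of all genes. MYC was lower in Molm-14 (-1.71, and -1.09 without RMC-4550 replicate 2). E2F1 fell in all 3 lines (-1.55, -0.78 and -1.86, adjusted p 3.6e-08, 0.00014 and 1.1e-08).

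RUNX3, a factor known to act with FOXO3 on BCL2L11, rose in all 3 lines. Molm-14 had 49.5 ± 2.03 CPM with DMSO and 199.6 ± 2.23 with RMC-4550 (2.01, adjusted p 2.2e-11). MV4-11 had 177 ± 2.54 and 238 ± 14.4 CPM (0.43, adjusted p 0.00047), which was not called in the fit of that line alone (adjusted p 0.066). SKNO-1 had 274 ± 11.5 and 320.4 ± 16.1 CPM (0.22, adjusted p 0.022), and there the call was lost without DMSO replicate 1 (0.19) or RMC-4550 replicate 2 (0.19) or 3 (0.23). As for BMF, its DMSO level was lowest and its change largest in Molm-14. Of the 6 atypical BH3 genes, the mitophagy gene BNIP3 fell in Molm-14 from 144.5 ± 1.499 to 94.8 ± 6.13 CPM (-0.61, adjusted p 3.2e-06), and there was no further call.

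The genes whose pattern over the 18 libraries was most like that of a member were taken by the root mean square distance of their centred log2 values among 11028 genes with a mean of at least 5 CPM. The 18 libraries share 3 lines and 2 treatments, so the correlations are descriptions. For BMF they were MMP2 (distance 0.24, Pearson r 0.942), VSIR (r 0.940) and HAVCR2 (r 0.939). For BCL2L11 they were GNPTAB (0.27, r 0.922), RAB11FIP1 (r 0.918) and GAB2 (r 0.916). For BBC3 they were ZNF746 (0.11, r 0.981), EOLA1 (r 0.971) and PIP4K2C (r 0.969).

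PMAIP1 was nearest to RFXAP (0.18, r 0.828), RFX5 (r 0.774) and LYRM1 (r 0.737), the least close matches of any member by correlation. BID was nearest to GRPEL1 (0.14, r 0.953) and ARHGAP17 (r 0.958). BAD was nearest to RABGGTA (0.11, r 0.894), TMEM94 (r 0.910) and RAB11B (r 0.891), and BIK to PDE8A (0.15, r 0.949), CYP27B1 (r 0.940) and LYRM2 (r 0.955).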

How the data were processed

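Per the labels' protocols, polyadenylated RNA of 18 cultures was sequenced as DNA nanoballs. The submitters' processing notes name FastQC, STAR, limma and the build GRCh38, and the counter, the annotation and the use of strand are not given in the sources used here. The authors deposited 1 table of log2 values for 40184 gene IDs. From the values, each is the log2 of depth-scaled reads (0.5 added) (scaling factors 0.890 to 1.11), which gave whole reads, within 0.05, for 100% of values under 200 reads. CPM were computed from these reads and scaled libraries. Symbols were matched for 40069 IDs.

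A single limma 3.58.1 fit (R 4.3.3, two-sided, eBayes with a trend) of the log2 values as deposited had 1 coefficient per group, with 16289 genes at 1 CPM or more in at least 3 libraries. A gene was tested in a contrast where it reached this within the line, in either line for line differences and in both for differences in response. Benjamini-Hochberg adjustment was over all genes of a contrast. The fit was tested on simulated data. Lengths are those of the longest GENCODE 29 transcript, or of the longest coding sequence where that is named.

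The members, the related lists and the tests were chosen with earlier results of these data known. Named genes were all members, related genes called alike in 3 lines, the largest called change per list and line with a mean of at least 5 CPM, and the 3 nearest genes per member, without genes of chromosome Y; some named by this rule are not reported here. FOXO3, MCL1, BCL2A1, BCL2L10, 3 caspases, DYNLL2, MYC, GPR137 and MIR4435-2HG are named outside this rule, after their values were seen. So are FOXO1, FOXO4, YWHAB, YWHAG, YWHAQ and YWHAZ. The BH3 pattern was widened to serine, and a residue was added after the aspartate, after the matches were seen. Reads per library limit the precision of HRK, and floors cover counting error only, since reads are not independent molecules. The 11 alternatives were log2(CPM + 1), quantile normalization, median-ratio scaling, no filter, a stricter filter (mean of 5 CPM), the replicate number as a block, separate fits per line, no trend, voom weights, the mitochondrial share as a covariate, and leaving out the 4 libraries over 10%. Each of the 18 libraries was also left out in turn. Figures were drawn with matplotlib 3.10.9.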

Additional observations from a re-analysis of the deposited data

Results flagged for a closer look

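The response to RMC-4550 differed between lines for these BH3-only genes by a test of the difference of log2 changes (limma, Benjamini-Hochberg adjusted over all genes). For MV4-11 minus Molm-14 the differences were -1.62 for BMF, 0.98 for PMAIP1, 0.88 for BID and -0.66 for BAD (adjusted p 2.2e-05, 0.00062, 1.0e-04 and 0.036). For SKNO-1 minus Molm-14 they were -1.66 for BMF, -0.51 for BBC3, 1.41 for PMAIP1, 0.65 for BID, -0.79 for BAD and 0.57 for BIK (adjusted p 9.9e-06, 0.019, 2.6e-05, 0.0011, 0.02 and 0.036). PMAIP1 was lower with RMC-4550 in 3 of 3 libraries of Molm-14 and higher in 3 of 3 of SKNO-1, beyond all libraries of the DMSO group in each.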

How the results depend on the processing

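Of 11 called drug changes, 7 kept direction and call under every setting and every library left out, as did 15 of 17 called line differences and 6 of 10 called response differences. Of 251 drug changes under other settings, 232 kept direction and side of the threshold, and 393 of 414 with 1 library left out. In Molm-14 the count called higher was 4 in place of 2 without the 4 libraries over 10% and when the mitochondrial share was a covariate. It was 3 with median-ratio scaling, with quantile normalization and without Molm-14 RMC-4550 replicate 2 alone. In MV4-11 the count called higher was 3 with median-ratio scaling and with the covariate, 0 with a fit per line and 1 to 2 with 1 library left out, and 1 gene (HRK, -0.40) was called lower with log2(CPM + 1). In SKNO-1 the count called lower was 0 with no filter and after quantile normalization, and 0 to 1 with 1 library left out. For the response of SKNO-1 against Molm-14, 3 to 7 members were called with 1 library left out (3 without SKNO-1 DMSO replicate 2 or RMC-4550 replicate 1), and for SKNO-1 against MV4-11, 2 with the covariate and 1 without the 4 libraries.

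Directions turned for values that were not called as reported. HRK in Molm-14 was -0.30 after quantile normalization, and ran from -0.16 to 0.16 with 1 library left out, below 0 without Molm-14 DMSO replicate 1 or 3 or RMC-4550 replicate 1. BID in SKNO-1 was 0.037 with median-ratio scaling and 0.10 after quantile normalization, and ran from -0.056 to 0.033 with 1 library left out, above 0 without RMC-4550 replicate 2. With 1 library left out, BAD in MV4-11 ran from -0.038 to 0.17 (below 0 without DMSO replicate 2 or RMC-4550 replicate 3), BAD in SKNO-1 from -0.18 to 0.041 (above 0 without RMC-4550 replicate 1), and BIK in MV4-11 from -0.0083 to 0.20 (below 0 without RMC-4550 replicate 1). BCL2L11 was -0.039 for the response of MV4-11 minus Molm-14 with the covariate, and -0.25 (called) and -0.13 for SKNO-1 minus MV4-11 with DMSO, with the covariate and without the 4 libraries. BMF for the response of SKNO-1 minus MV4-11 was 0.0069 after quantile normalization, 0.12 with the covariate and 0.055 without the 4 libraries, and ran from -0.14 to 0.032 with 1 library left out, above 0 without MV4-11 DMSO replicate 3 or RMC-4550 replicate 3. The cause was not tested.

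Same-numbered libraries did not deviate together in every line (correlations -0.04, -0.04 and -0.01 in Molm-14, 0.41, 0.60 and -0.40 in MV4-11, 0.14, 0.02 and 0.04 in SKNO-1), so the numbers were not taken as pairs. With the replicate number as a block the members called were 2 higher and 2 lower in Molm-14, 2 and 0 in MV4-11 and 4 and 1 in SKNO-1, and the differences of BAD (MV4-11 against Molm-14, -0.66) and BIK (SKNO-1 against Molm-14, 0.57) were not called, nor was the fall of FOXO3 in SKNO-1 (-0.32). The BAD difference was also lost with no filter, quantile normalization (-0.55), the covariate (-0.49), without the 4 libraries (-0.48) and with 7 single libraries left out (-0.70 to -0.55). The BIK difference was lost with 10 of the 18 left out. Of the 24 places of members by level with DMSO, 16 moved with the longest coding length. Median-ratio scaling moved the share of calls that were higher, over all genes, from 42.2% to 51.9% in MV4-11 and from 40.0% to 50.6% in SKNO-1.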
